A study of Mus musculus with 22 samples.

Results

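The cytochrome P450 enzymes of families 1 to 4, the UDP-glucuronosyltransferases, the glutathione transferases and the sulfotransferases were followed in mouse colon after dextran sulfate sodium (DSS), a polysaccharide that injures the colon epithelium when it is drunk. Members were taken by gene symbol alone, and 132 of the 23997 genes in the expression table matched. They fell into 48 Cyp2, 17 Cyp4, 7 Cyp3 and 3 Cyp1 genes, 8 Ugt1a, 7 Ugt2b and 3 Ugt2a genes, 7 Gstm, 4 Gsta, 4 Gstt, 2 Gstp and 4 Gstk, Gsto or Gstz genes, and 18 Sult genes. All 22 libraries came from colon of wild type BALB/c mice. The mice were 5 weeks old when the drinking period of 3 weeks began, and no source used here gives their sex. HMLS mice (4 libraries, numbered 3, 6, 7 and 8) drank a deep sea water sample of that name, and TM mice (5 libraries, numbered 3, 5, 6, 7 and 8) drank another. DSS mice (5 libraries, numbered 1, 2, 5, 6 and 7) drank distilled water, and CON mice (8 libraries) drank distilled water with no DSS at any time. HMLS, TM and DSS mice all received 5% DSS in their own water for 1 week before death, so no library shows either deep sea water without colitis. The labels do not spell out HMLS or TM, and they do not say whether each library is 1 mouse.

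These families carry out drug and toxin metabolism. In phase I, microsomal P450 enzymes use electrons from the reductase Por to oxidise fat-soluble compounds, and many also act on fatty acids, steroids and eicosanoids. In phase II, glucuronic acid, glutathione or sulfate is joined to the compound, which transporters then move out of the cell. Liver holds the highest levels of most of these enzymes, and the gut epithelium holds its own set, the first that swallowed compounds meet.

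Expression was measured as FPKM, fragments scaled by transcript length and by library size, so levels of different genes can be set side by side. The libraries held 48089882 to 68733410 reads, of which 82.3% to 92.7% mapped. The 5 DSS libraries mapped at 82.3% to 88.9%, all below the 89.9% to 91.9% of the 8 CON libraries, so the mapped share and DSS without deep sea water cannot be told apart. HMLS libraries mapped at 88.8% to 90.5% and TM libraries at 89.5% to 92.7%. Absorptive colonocyte markers summed to 2962 to 9131 FPKM over the 22 libraries, and small intestine markers to 13.5 to 47.9 FPKM. Among the CON libraries, library 1 held 63.0 FPKM of the distal colon gene Hoxb13, which was at 0 in 16 of the 22 libraries, and libraries 1, 4 and 7 held over 5 FPKM of Hoxa13, another gene of distal position. Calls of named genes that end without those 3 libraries are given with the gene.

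The colon expressed a narrow set of the members at high level. Of the 132 genes, 61 averaged at least 1 FPKM over the 22 libraries, 41 at least 10 FPKM and 10 at least 100 FPKM. The other 71 averaged under 1 FPKM, and 8 were listed at 0 in every library (Cyp2c37, Cyp3a16, Sult2a1, Sult2a2, Sult2a3, Sult2a4, Sult3a1 and Ugt1a10). Cyp2 genes made up 44.0% of the summed mean FPKM of all members and Sult genes 15.8%. The highest member was Cyp2c55, a P450 of the Cyp2c subfamily that oxidises arachidonic acid, at a mean of 1420.2 FPKM. It was followed by the sulfotransferase Sult1d1 at 347 FPKM, the omega-class transferase Gsto1 at 243 FPKM, Sult1a1 at 196 FPKM and Ugt2b34 at 190.5 FPKM. The 3 Cyp1 genes, the classical targets of the aryl hydrocarbon receptor, were near 0: Cyp1a1 reached 0.593 FPKM at most, Cyp1a2 0.125 FPKM and Cyp1b1 0.858 FPKM. None of the 3 Ugt2a genes averaged 1 FPKM.

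Cyp2c55, Cyp2c68 and Cyp2c69 lie in the Cyp2c cluster of chromosome 19, and each was called lower in at least TM and DSS. The 250 bases before the RefSeq start are shown for those 3, for Cyp2c67, a close copy of Cyp2c68 and Cyp2c69, and for Cyp2c65. Cyp2c65 is an expressed neighbour that was not called with the settings used throughout (RefSeq, GRCm38.p6, 5′ to 3′ on the gene's own strand). Capitals mark exact matches, on either strand, to CAAAGTCCA, a form of the site bound by the epithelial and liver factor HNF4A, or to GCGTG, the core bound by the aryl hydrocarbon receptor. The windows are chr19:39006769-39007018 on the plus strand for Cyp2c55, chr19:39060756-39061005 on the plus strand for Cyp2c65, chr19:39649043-39649292 on the minus strand for Cyp2c67, chr19:39741102-39741351 on the minus strand for Cyp2c68 and chr19:39886770-39887019 on the minus strand for Cyp2c69.
Cyp2c55: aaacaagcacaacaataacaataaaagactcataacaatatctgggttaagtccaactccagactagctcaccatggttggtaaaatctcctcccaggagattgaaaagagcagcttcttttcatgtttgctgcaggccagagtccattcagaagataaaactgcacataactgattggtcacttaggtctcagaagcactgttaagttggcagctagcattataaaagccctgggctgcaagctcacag
Cyp2c65: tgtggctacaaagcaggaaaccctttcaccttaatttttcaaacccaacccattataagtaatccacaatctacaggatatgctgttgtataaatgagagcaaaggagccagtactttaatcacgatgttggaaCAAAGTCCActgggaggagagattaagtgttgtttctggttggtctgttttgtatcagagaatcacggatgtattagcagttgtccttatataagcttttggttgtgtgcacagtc
Cyp2c67: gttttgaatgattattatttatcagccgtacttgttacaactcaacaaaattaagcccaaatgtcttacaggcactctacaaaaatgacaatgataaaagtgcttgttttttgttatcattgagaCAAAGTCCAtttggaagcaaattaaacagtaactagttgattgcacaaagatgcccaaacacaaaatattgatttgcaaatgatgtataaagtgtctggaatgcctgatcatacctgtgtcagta
Cyp2c68: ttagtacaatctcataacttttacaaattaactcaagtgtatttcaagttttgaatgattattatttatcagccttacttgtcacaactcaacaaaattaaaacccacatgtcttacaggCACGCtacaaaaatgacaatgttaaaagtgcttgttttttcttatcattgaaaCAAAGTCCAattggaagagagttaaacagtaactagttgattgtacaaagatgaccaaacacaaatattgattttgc
Cyp2c69: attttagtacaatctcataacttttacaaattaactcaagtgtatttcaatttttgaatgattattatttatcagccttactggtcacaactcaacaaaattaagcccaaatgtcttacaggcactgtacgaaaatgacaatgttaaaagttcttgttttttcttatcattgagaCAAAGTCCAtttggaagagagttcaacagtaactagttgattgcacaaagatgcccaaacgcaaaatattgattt

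The windows of Cyp2c68 and Cyp2c69 were 91.3% identical (232 of 254 aligned columns), while those of Cyp2c55 and Cyp2c69 were 50.5% identical. CAAAGTCCA lay at bases -77 to -69 before the start in Cyp2c68, -75 to -67 in Cyp2c69, -125 to -117 in Cyp2c67 and -116 to -108 in Cyp2c65, always on the gene's strand. The 250 bases of Cyp2c55 held no match to it. The match was found in 8 of the 112 members with a RefSeq promoter (7.14%), namely Cyp2c40, Cyp2c65, Cyp2c67, Cyp2c68, Cyp2c69, Cyp2c70, Cyp3a11 and Cyp3a16, against 0.384% of all 32851 promoters. Several of these genes are close copies of each other, so the 8 are not independent. GCGTG was found in 20 of the 112 (17.9%), against 28.2% of all promoters, and among the 5 windows only in Cyp2c68, at bases -130 to -126 on the opposite strand. TGACNNNGC, the core of the element bound by NRF2, was found in 5 of the 112 (4.46%), against 10.2% of all promoters, and AGGTCA, a site of nuclear receptors, in 26 of the 112 (23.2%), against 14.0%. The form of the HNF1 site searched was found in 0 of the 112 and in 0.00913% of all promoters. A member was counted when any promoter of the gene held a match, while the share of all promoters counts each promoter separately. The shares set side by side are therefore not strictly alike. A match describes letters only.

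Against CON, more members were called lower than higher in each colitis group, but in HMLS the lower share was below that of all genes. P450 enzymes, glutathione transferases and sulfotransferases were called in all 3 groups, and UDP-glucuronosyltransferases in HMLS and TM. A gene was tested where at least 4 libraries of the comparison held 1 FPKM, and it was called where limma's adjusted p was under 0.05, with p-values adjusted over all genes tested. In HMLS, 6 of 64 tested members (9.375%) were called higher and 10 (15.6%) lower. Over all 13400 genes tested in that comparison, 17.5% were called higher and 16.6% lower. In TM, 0 of 64 tested members were called higher and 16 (25%) lower, where 14.3% of 13485 genes were called higher and 11.8% lower. In DSS, 4 of 63 tested members (6.35%) were called higher and 14 (22.2%) lower, where 14% of 13483 genes were called higher and 13.1% lower. Cyp2c67 and Cyp4f18 passed the filter through CON libraries alone, so they had to be lower where they were called. Cyp2c67 is 1 of the members counted as lower in each group, and its calls are not read as results. At an unadjusted p under 0.05, 10 tested members were higher and 12 lower in HMLS, where 22.8% and 22.5% of all genes were. By the same measure 4 were higher and 20 lower in TM, where 20.7% and 18.5% of all genes were, and 7 and 20 in DSS, where 20.6% and 20.3% were. With every library beyond the range of CON, 2 members were higher and 6 lower in HMLS (7.81% and 7.21% of all genes), 0 and 3 in TM (4.66% and 3.4%), and 0 and 5 in DSS (4.13% and 3.72%). Cyp2c67 is counted among these lower members in HMLS. It is also counted as lower at the unadjusted p in each group, and Cyp4f18 is in HMLS and DSS. The filter fixed the direction of both, so neither is read as a result. The median log2 difference of the tested members was 0.17 in HMLS, -0.16 in TM and -0.13 in DSS, beside 0.00, 0.01 and -0.01 for all genes tested. The 3 comparisons share the CON libraries, so they are not independent of each other.

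Scaling each library by its 75th percentile moved the calls of all genes toward lower, to 1612 higher and 3088 lower in HMLS, 1434 and 2269 in TM, and 1324 and 2653 in DSS. Without that scaling they were 2339 and 2226 in HMLS, 1924 and 1586 in TM, and 1889 and 1766 in DSS. For the members it gave 5 higher and 12 lower in HMLS, 0 and 19 in TM, and 3 and 18 in DSS. With the mapped share of each library as a covariate, no member was called in DSS in either direction, and 4 genes higher and 22 lower were called among all genes. In HMLS that covariate left 7 members higher and 5 lower, and in TM 0 higher and 14 lower. It ended the HMLS calls of Cyp2c67, Cyp2c68, Cyp2c69, Gstk1, Gstt1, Sult1c2 and Sult2b1, and the TM calls of Gstm2, Gstm6 and Ugt2b35. All 16 calls in DSS among the pathway genes described after the members also ended with that covariate.

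**Figure D1:**
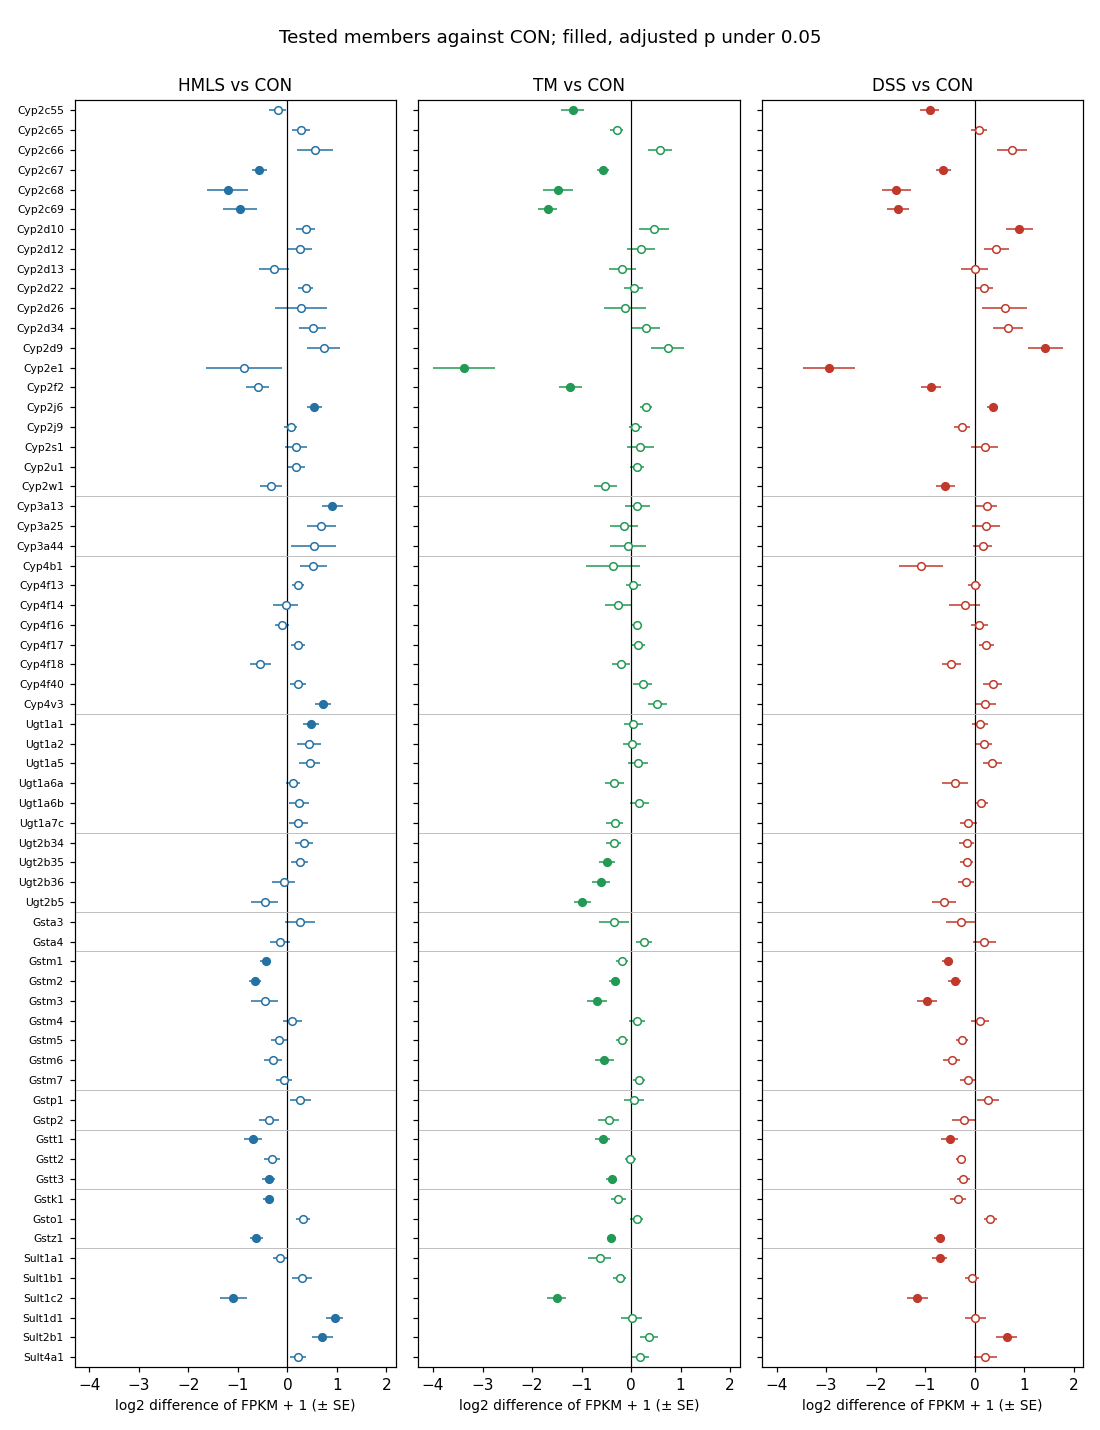
Log2 difference of FPKM + 1 (± SE) of each tested member against CON, in HMLS (left), TM (middle) and DSS (right), with families separated by grey lines. Filled points have an adjusted p under 0.05; in TM all 16 filled points lie left of 0, and Cyp2e1 lies farthest left in TM and DSS.

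Summed over each family, Cyp2 reached 2137 ± 722 FPKM in HMLS, 1235 ± 485 in TM and 1474 ± 436 in DSS, against 2253 ± 271 in CON (mean ± SD, n = 4, 5, 5 and 8). The Cyp2 sum ranged over 798 to 2028 FPKM in TM and 1049 to 2059.9 FPKM in DSS, against 1885 to 2784 FPKM in CON, and 4 of 5 libraries in TM and in DSS lay below all of CON. Gstm genes summed to 136 ± 19.97 FPKM in HMLS, 159.9 ± 21.6 in TM and 139 ± 19.7 in DSS, against 189 ± 17.8 in CON. All 4 HMLS and all 5 DSS libraries lay below the lowest CON library on that sum. Sult genes summed to 912 ± 145 FPKM in HMLS, 557 ± 175 in TM and 559 ± 136 in DSS, against 646 ± 85.7 in CON, and all 4 HMLS libraries lay above every CON library. The sums are descriptions and were not tested, and each is led by 1 or a few abundant genes. In whole tissue, fewer cells of a type and less RNA per cell cannot be told apart.

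**Figure D2:**
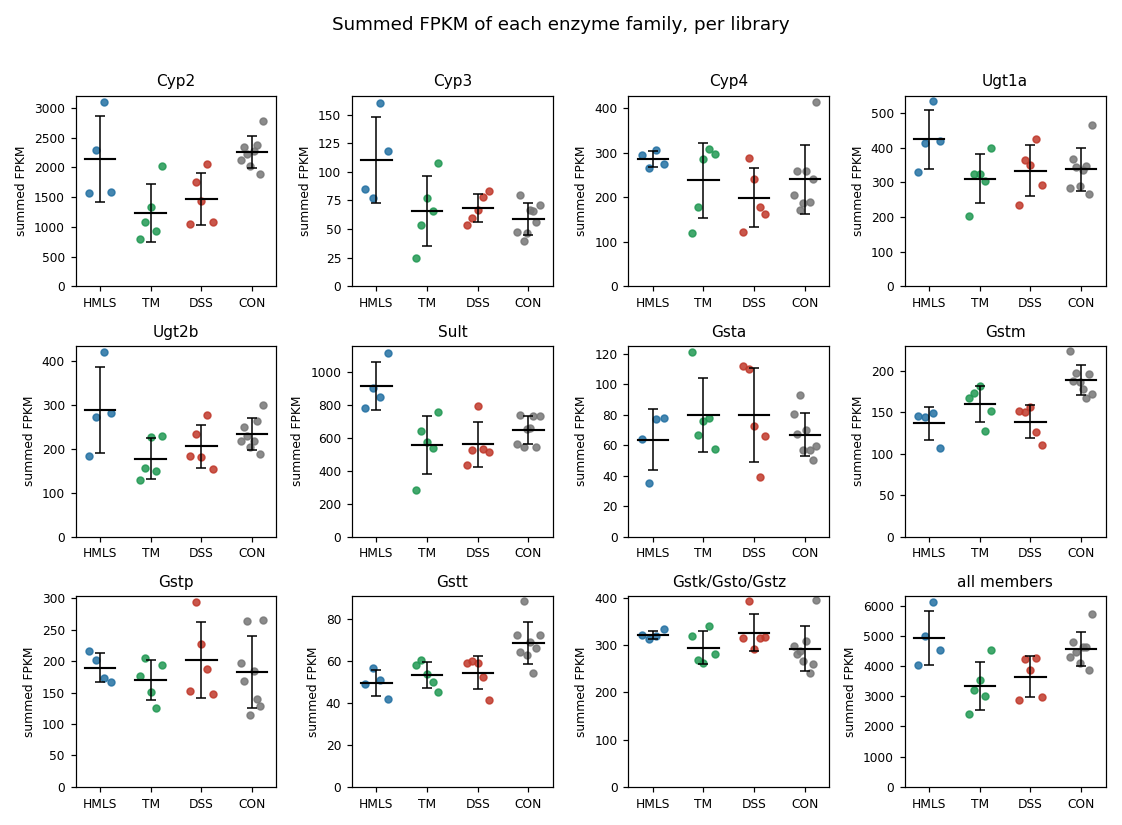
Summed FPKM of the members of each enzyme family in each library, in HMLS, TM, DSS and CON, with the mean (line) and SD (bars). Cyp2 sums were lower in most TM and DSS libraries than in CON, Gstm sums were lower in HMLS and DSS, and Sult sums were highest in HMLS.

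Markers of other cells are given beside these results. The shares of all genes called, to be read with the counts of markers, were 17.5% higher and 16.6% lower in HMLS. They were 14.3% and 11.8% in TM, and 14% and 13.1% in DSS. General epithelium markers summed to 3852 to 3950.0 FPKM in HMLS, 3506 to 5163 in TM and 3233 to 5752 in DSS, against 2586 to 4314 in CON, with 2, 3 and 2 of the 6 markers called higher and 0 lower in HMLS, TM and DSS. Fibroblast markers summed to 102 to 144 FPKM in HMLS, 111 to 474 in TM and 78.6 to 208 in DSS, against 236 to 365 in CON, with 5, 2 and 5 of 6 called lower. Smooth muscle markers summed to 1286 to 2429.9 FPKM in HMLS, 804 to 1758 in TM and 561 to 2195 in DSS, against 1269 to 2466 in CON, with 0, 4 and 3 of 6 called lower. All 4 stem cell markers were called lower in each group, at summed levels of 4.06 to 7.58, 2.75 to 11.9 and 2.02 to 11.1 FPKM in HMLS, TM and DSS, against 16.8 to 23.8 FPKM in CON. Absorptive colonocyte markers summed to 5011 to 9131 FPKM in HMLS, 3314 to 5333 in TM and 2962 to 7798 in DSS, against 4586 to 8374 in CON. Of the 8 absorptive markers, 2 were called higher in HMLS, 1 lower in TM and 3 higher in DSS. Goblet markers summed to 5682 to 10388 FPKM in HMLS, 8365 to 15198 in TM and 9421 to 17416 in DSS, against 10746 to 15045 in CON, with 3 of 7 called lower in HMLS, 0 called in TM and 1 called higher in DSS. Neutrophil markers summed to 1.45 to 23.3 FPKM in HMLS, 5.03 to 95.6 in TM and 2.58 to 70.3 in DSS, against 0.426 to 1.73 in CON, and all tested neutrophil markers (1 in HMLS, 3 in TM and 3 in DSS) were called higher. Macrophage markers summed to 31.1 to 94.2 FPKM in HMLS, 109.6 to 174 in TM and 50.001 to 90.2 in DSS, against 63.7 to 167 in CON, with 3, 0 and 1 of 5 called lower. The absorptive markers lower in TM (12.5%) and the goblet markers higher in DSS (14.3%) were near the shares of all genes. The part of these cell types in the members' results was not tested.

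In the Cyp2c cluster, Cyp2c55, Cyp2c68 and Cyp2c69 fell in TM and DSS, and Cyp2c68 and Cyp2c69 fell in HMLS. Cyp2c66, in the same cluster, had higher means than CON in all 3 groups and was not called with the settings used throughout. It averaged 6.22 ± 5.81 FPKM in HMLS, 5.296 ± 2.95 in TM and 6.55 ± 4.43 in DSS, against 2.94 ± 0.855 in CON (SD). Cyp2c66 was named after its values were seen. Cyp2c55 (chr19:39007019-39042693, plus strand, mm10) read 1264, 1735, 2519 and 1216 FPKM in HMLS and 505, 839, 935, 537 and 1673 FPKM in TM, in order of library number. It read 651, 1178, 1154, 1549.8 and 659.8 FPKM in DSS, against 1515, 1872 and 2213 FPKM (lowest, median and highest) in CON. HMLS library 7 stood above every CON library and HMLS 3 and 8 below, while 4 of 5 TM and 4 of 5 DSS libraries stood below all of CON. Cyp2c55 gave a log2 difference of -0.20 ± 0.17 (SE, adjusted p = 0.387) in HMLS, -1.18 ± 0.23 (SE, adjusted p = 0.00239) in TM and -0.91 ± 0.19 (SE, adjusted p = 0.00418) in DSS. Without HMLS library 7 the HMLS value was called, at an adjusted p of 0.0365. With all libraries it was called under quantile scaling (-0.43, adjusted p = 0.0312), while with the mapped share as covariate it was 0.0078 (adjusted p = 0.983). Its transcripts share 0.514% of their words of 50 bases with other genes.

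Cyp2c68 (chr19:39688834-39741054, minus strand) read 2.94, 8.096, 15.96 and 3.45 FPKM in HMLS and 8.32, 2.68, 6.55, 3.33 and 5.88 FPKM in TM. It read 3.48, 4.81, 3.26, 9.79 and 3.42 FPKM in DSS, against 5.23, 17.3 and 25.3 FPKM in CON. HMLS library 7 stood near the CON median, and TM and DSS overlapped CON through its lowest library alone. Cyp2c68 gave a log2 difference of -1.20 ± 0.42 (SE, adjusted p = 0.0416) in HMLS, -1.47 ± 0.30 (SE, adjusted p = 0.00424) in TM and -1.58 ± 0.30 (SE, adjusted p = 0.00258) in DSS. The HMLS call ended when any of 10 of the 12 libraries was left out, with the adjusted p ranging over 0.00676 to 0.132 as each was left out, and with the 5 CON libraries of low Hoxa13 alone, at 0.165.

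Cyp2c69 (chr19:39842814-39886799, minus strand) read 0.646, 0.771, 6.28 and 1.43 FPKM in HMLS and 0.455, 0.569, 1.35, 0.236 and 0.734 FPKM in TM. It read 0.378, 1.18, 0.722, 1.83 and 0.204 FPKM in DSS, against 2.43, 4.63 and 6.23 FPKM in CON. Every TM and every DSS library stood below every CON library, while HMLS library 7 stood above all 8. Groups without overlap and lower were found for 3.4% of all genes in TM and 3.72% in DSS. Cyp2c69 gave a log2 difference of -0.96 ± 0.34 (SE, adjusted p = 0.041) in HMLS, -1.68 ± 0.19 (SE, adjusted p = 9.34e-05) in TM and -1.56 ± 0.22 (SE, adjusted p = 0.000684) in DSS. The HMLS call ended when any of 9 of the 12 libraries was left out, with the adjusted p ranging over 0.000449 to 0.137 as each was left out, and with the 5 CON libraries of low Hoxa13 alone, at 0.154. Cyp2c67 averaged 0.3604 ± 0.246 FPKM in HMLS, 0.356 ± 0.185 in TM and 0.311 ± 0.312 in DSS, against 1.003 ± 0.264 in CON (SD, n = 4, 5, 5 and 8), given as levels only. Cyp2c68 shares 43.3%, Cyp2c69 54.8% and Cyp2c67 52.8% of their 50-base words with other genes, mostly with each other and Cyp2c40, so the split of reads among these copies is uncertain.

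Cyp2c65 (chr19:39061015-39093944, plus strand), whose promoter window holds the same match to CAAAGTCCA, was not called in any of the 3 with the settings used throughout. It read 96.2, 161, 203 and 168 FPKM in HMLS and 97.2, 90.5, 112, 97.9 and 118 FPKM in TM. It read 106, 157, 111, 195 and 121 FPKM in DSS, against 89.3, 135 and 152 FPKM in CON. All groups overlapped. Cyp2c65 gave a log2 difference of 0.27 ± 0.18 (SE, adjusted p = 0.268) in HMLS, -0.29 ± 0.13 (SE, adjusted p = 0.107) in TM and 0.09 ± 0.16 (SE, adjusted p = 0.696) in DSS. The TM value was called with the 5 CON libraries of low Hoxa13 alone (-0.45, adjusted p = 0.015), and the DSS value turned sign there. The TM value was also called with quantile scaling (adjusted p = 0.042), with 75th percentile scaling (adjusted p = 0.0428) and with the mapped share as covariate (adjusted p = 0.0492). Cyp2c65 was further called in TM without CON library 7 (adjusted p = 0.0294) and higher in HMLS without HMLS library 3 (adjusted p = 0.0331).

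**Figure D3:**
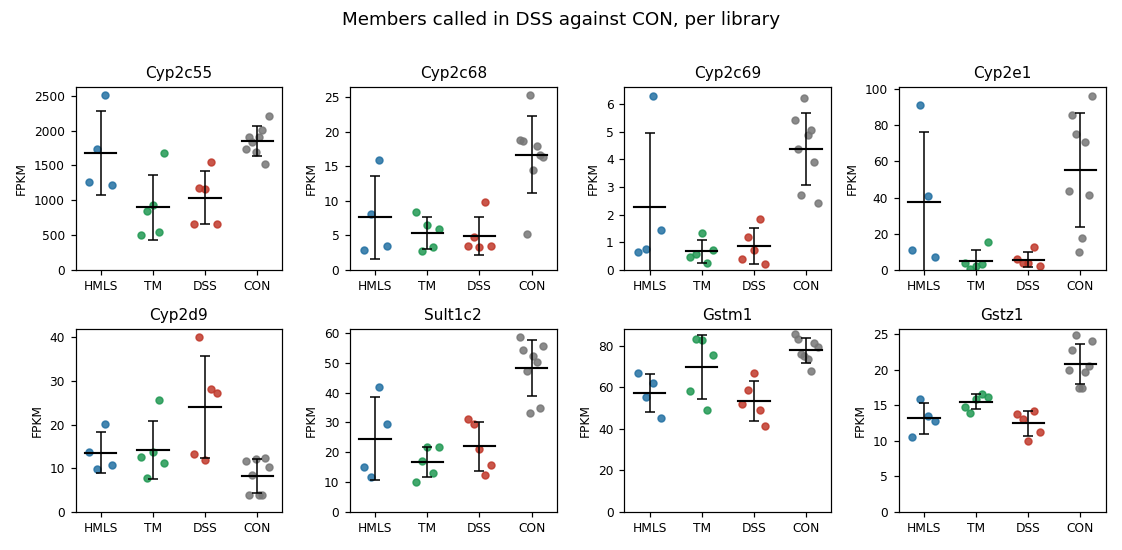
FPKM of 8 members called in DSS, in each library of HMLS, TM, DSS and CON, with the mean (line) and SD (bars, not drawn below 0). Cyp2c69, Sult1c2, Gstm1 and Gstz1 show no DSS library as high as the lowest CON library, Cyp2d9 is higher in DSS, and HMLS library 7 is the high HMLS point of Cyp2c55, Cyp2c68 and Cyp2c69.

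Cyp2e1 (chr7:140763739-140774987, plus strand), which oxidises ethanol, acetone and small solvents, showed the largest log2 difference of any tested member, lower in TM and DSS. It read 10.8, 91.4, 40.7 and 7.01 FPKM in HMLS and 3.52, 0.646, 2.298, 2.98 and 15.3 FPKM in TM. It read 5.95, 3.66, 3.86, 12.6 and 2.296 FPKM in DSS, against 9.899, 57.3 and 96.2 FPKM in CON. All TM and DSS libraries but TM 8 and DSS 6 stood below the lowest CON library. HMLS 3, 6 and 7 lay inside the CON range, with HMLS 6 close to its top. Cyp2e1 gave a log2 difference of -0.88 ± 0.77 (SE, adjusted p = 0.4) in HMLS, -3.38 ± 0.63 (SE, adjusted p = 0.00317) in TM and -2.95 ± 0.53 (SE, adjusted p = 0.00241) in DSS.

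Fat cells also hold Cyp2e1, and genes of fat cells moved with it. The 7 adipocyte markers summed to 46.97 to 474 FPKM in HMLS, 31.5 to 96.8 in TM and 40.6 to 131 in DSS, against 90.9 to 1325 in CON. Of the 6 tested, 1 was called lower in HMLS, 6 in TM and 5 in DSS, with Adipoq, the hormone adiponectin, at -3.35 in TM and -2.98 in DSS. Among all genes tested, 16.6% were called lower in HMLS, 11.8% in TM and 13.1% in DSS. The seventh, Lep, was at most 0.272 FPKM in any library. Cyp2e1 came to 11.7% to 19.3% of the adipocyte sum in HMLS, 2.05% to 15.8% in TM and 4.54% to 10.2% in DSS, against 5.69% to 13.4% in CON. The 6 hepatocyte markers together summed to 0.615 to 8.96 FPKM over the 22 libraries. The part of fat cells in the Cyp2e1 result was not tested.

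**Figure D4:**
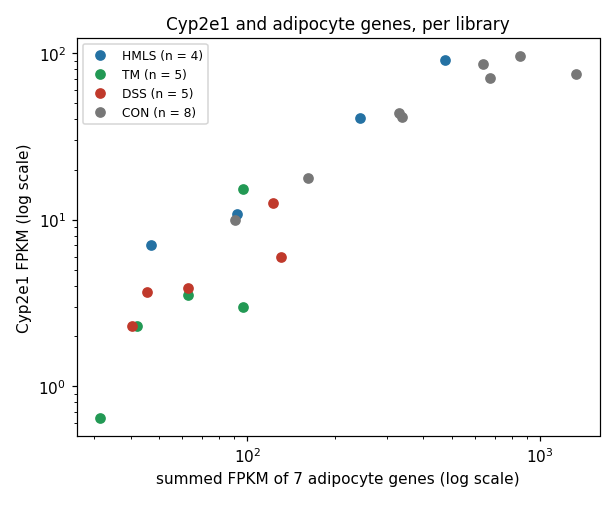
Cyp2e1 FPKM against the summed FPKM of 7 adipocyte genes in each of the 22 libraries (both axes log scale), coloured by group. The TM and DSS libraries lie toward the lower left, with the adipocyte sum at most 96.8 FPKM in TM and 131 FPKM in DSS. CON library 4 and HMLS libraries 3 and 8 lie there too, at adipocyte sums of 90.9, 92.2 and 46.97 FPKM.

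Cyp2f2 (chr7:27119909-27133660, plus strand), known for activating naphthalene in the club cells of the airway, fell in TM and DSS. It read 3.22, 4.77, 4.59 and 1.54 FPKM in HMLS and 0.887, 1.98, 4.22, 1.23 and 1.602 FPKM in TM. It read 2.82, 3.805, 3.17, 2.37 and 1.18 FPKM in DSS, against 3.04, 6.39 and 7.56 FPKM in CON. TM library 6 and DSS libraries 2 and 5 reached the CON range, and the other TM and DSS libraries stood below it. Cyp2f2 gave a log2 difference of -0.60 ± 0.23 (SE, adjusted p = 0.0565) in HMLS, -1.23 ± 0.23 (SE, adjusted p = 0.00218) in TM and -0.88 ± 0.21 (SE, adjusted p = 0.00751) in DSS. With the 5 CON libraries of low Hoxa13 alone the DSS call ended, at 0.0521. In HMLS, leaving out any of 4 libraries (CON 5 or 6, HMLS 6 or 7) gave a call, at an adjusted p down to 0.0227. Scaling by the 75th percentile also gave a call there (adjusted p = 0.033). Cyp2w1, at 1.14 ± 0.572 FPKM in DSS and 2.201 ± 0.659 in CON (SD, n = 5 and 8), was called lower in DSS at a log2 difference of -0.59, and leaving out any of 5 libraries ended that call, with adjusted p values of 0.0128 to 0.0907 over the 13. It also ended with the 5 CON libraries of low Hoxa13 alone.

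Higher in DSS were the mouse Cyp2d genes Cyp2d9, a steroid hydroxylase of mouse liver, and Cyp2d10, together with the epoxygenase Cyp2j6. Cyp2d9 (chr15:82433437-82456845, plus strand) read 13.7, 9.75, 20.1 and 10.8 FPKM in HMLS and 12.6, 7.72, 13.7, 25.6 and 11.2 FPKM in TM. It read 13.1, 40.05, 11.9, 28.2 and 27.1 FPKM in DSS, against 3.79, 9.34 and 12.3 FPKM in CON. All DSS libraries but 5 stood above every CON library, as did HMLS 3 and 7 and TM 3, 6 and 7. Cyp2d9 gave a log2 difference of 0.73 ± 0.34 (SE, adjusted p = 0.107) in HMLS, 0.74 ± 0.33 (SE, adjusted p = 0.117) in TM and 1.43 ± 0.35 (SE, adjusted p = 0.00988) in DSS. With the 5 CON libraries of low Hoxa13 alone it was also called in HMLS (1.10, adjusted p = 0.0241) and in TM (1.11, adjusted p = 0.0381). With the library number as a block it was called in TM too (0.82, adjusted p = 0.0264).

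Cyp2d10 (chr15:82402846-82407195, minus strand) read 11.5, 11.2, 15.2 and 11.2 FPKM in HMLS and 7.98, 10.3, 10.98, 37.6 and 10.7 FPKM in TM. It read 20.6, 34.8, 10.96, 9.91 and 23.9 FPKM in DSS, against 5.73, 9.29 and 15.7 FPKM in CON. DSS libraries 1, 2 and 7 and TM library 7 stood above all of CON. Without CON library 8, the highest of CON, the HMLS value was called, at an adjusted p of 0.0361. Cyp2d10 gave a log2 difference of 0.37 ± 0.19 (SE, adjusted p = 0.155) in HMLS, 0.46 ± 0.31 (SE, adjusted p = 0.286) in TM and 0.90 ± 0.27 (SE, adjusted p = 0.0267) in DSS. Its DSS call ended without DSS library 2 or 7, at adjusted p values of 0.00939 to 0.0726 over the 13 libraries left out, and with the 5 CON libraries of low Hoxa13 alone. Cyp2d10 shares 36.7% and Cyp2d9 29.3% of their 50-base words with other Cyp2d genes, so their levels are uncertain. Cyp2j6 averaged 37.9 ± 9.71 FPKM in HMLS and 32.8 ± 5.098 in DSS, against 25.1 ± 3.01 in CON (SD, n = 4, 5 and 8), and was called higher in HMLS at a log2 difference of 0.55 and in DSS at 0.37. The DSS call of Cyp2j6 ended when any of 3 libraries was left out and with the 5 CON libraries of low Hoxa13 alone.

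Cyp3 genes oxidise steroids and many drugs, and Cyp3a13 is one that the mouse intestine expresses. Cyp3a13 (chr5:137892932-137921619, minus strand) rose in HMLS. It read 42.2, 64.9, 64.2 and 71.6 FPKM in HMLS and 17.1, 30.1, 45.1, 43.01 and 47.9 FPKM in TM. It read 23.1, 41.3, 36.1, 43.01 and 49.7 FPKM in DSS, against 17.9, 33.6 and 45.2 FPKM in CON. HMLS libraries 6, 7 and 8 stood above every library of the other groups, and HMLS 3 inside their range. Cyp3a13 gave a log2 difference of 0.90 ± 0.21 (SE, adjusted p = 0.00577) in HMLS, 0.13 ± 0.25 (SE, adjusted p = 0.737) in TM and 0.25 ± 0.21 (SE, adjusted p = 0.403) in DSS. Cyp3a44 read 39.3, 8.76, 91.3 and 44.5 FPKM in HMLS and 7.15, 21.2, 30.97, 21.6 and 57.1 FPKM in TM. It read 28.02, 17.3, 27.7, 32.8 and 30.7 FPKM in DSS, against 14.5, 24.8 and 34.1 FPKM in CON, and was not called. HMLS library 7 was the highest of all 22 and HMLS 6 was above TM 3 alone, and without HMLS 6 the HMLS value was called, at an adjusted p of 0.00628. Cyp3a44 shares 26.5% of its 50-base words with other Cyp3a genes.

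Cyp4 enzymes hydroxylate the ends of fatty acids. Cyp4b1 (chr4:115624725-115647723, minus strand), the most abundant of them, read 159, 107, 153 and 162 FPKM in HMLS and 11.1, 73.8, 122, 145 and 170.2 FPKM in TM. It read 12.4, 69.05, 142, 38.8 and 43.5 FPKM in DSS, against 63.1, 92.04 and 204 FPKM in CON. DSS library 1 and TM library 3 were the lowest, DSS 5 was high among the DSS libraries, and all groups overlapped. Cyp4b1 gave a log2 difference of 0.53 ± 0.27 (SE, adjusted p = 0.138) in HMLS, -0.37 ± 0.55 (SE, adjusted p = 0.651) in TM and -1.08 ± 0.45 (SE, adjusted p = 0.0858) in DSS. Without DSS library 5 the DSS value was called, at -1.48 and an adjusted p of 0.018, and without CON library 8 the HMLS value was called, at 0.67 and an adjusted p of 0.0191. The HMLS value was also called with the mapped share as covariate, at 1.03 and an adjusted p of 0.0165. Cyp4v3, the mouse counterpart of the human eye disease gene CYP4V2, read 11.7, 11.2, 11.6 and 10.9 FPKM in HMLS and 5.49, 10.2, 11.1, 11.6 and 12.5 FPKM in TM. It read 4.99, 9.41, 13.8, 5.86 and 7.12 FPKM in DSS, against 4.79, 6.42 and 10.5 FPKM in CON. It rose in HMLS at a log2 difference of 0.72 ± 0.16 (SE, adjusted p = 0.0042) with no overlap with CON, and was not called in TM or DSS. TM library 8 and DSS library 5 stood above every HMLS library. The HMLS call ended with the library number as a block (adjusted p = 0.0885). Groups without overlap and higher were found for 7.81% of all genes in HMLS. Cyp4f14 averaged 64.1 ± 15.6 FPKM in HMLS, 56.7 ± 22.5 in TM and 62.4 ± 34.9 in DSS, against 67.7 ± 26.4 in CON, and was not called.

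Among the UDP-glucuronosyltransferases, none was called in DSS. Of 6 tested Ugt1a genes, 1, Ugt1a1, rose in HMLS, and of 4 tested Ugt2b genes, 3 fell in TM. Of all genes tested, 17.5% were called higher in HMLS and 11.8% lower in TM, and in DSS 14% higher and 13.1% lower. Ugt1a1 (chr1:88211959-88218997, plus strand), which joins glucuronic acid to bilirubin, read 167, 194, 232 and 181 FPKM in HMLS and 83.6, 150.5, 149, 171 and 183 FPKM in TM. It read 101, 142, 171, 183 and 162 FPKM in DSS, against 105, 141 and 187 FPKM in CON. HMLS libraries 6 and 7 stood above every CON library, and the groups overlapped. Ugt1a1 gave a log2 difference of 0.48 ± 0.16 (SE, adjusted p = 0.0277) in HMLS, 0.05 ± 0.18 (SE, adjusted p = 0.863) in TM and 0.11 ± 0.17 (SE, adjusted p = 0.654) in DSS. The HMLS call ended without HMLS library 6, 7 or 8, at adjusted p values of 0.0103 to 0.0886 over the 12 libraries left out, and with the 5 CON libraries of low Hoxa13 alone. It also ended with quantile scaling (adjusted p = 0.114) and 75th percentile scaling (adjusted p = 0.0788). All 22 libraries in 1 fit (adjusted p = 0.0634) and the library number as a block (adjusted p = 0.164) ended it as well. Ugt1a7c averaged 162 ± 46.7 FPKM in HMLS, 109.5 ± 25.2 in TM and 126 ± 28.1 in DSS, against 139 ± 34.1 in CON, and was not called. Ugt1a genes are built from 1 locus with shared last exons, and Ugt1a1 and Ugt1a7c share 58.2% and 54.2% of their 50-base words with other genes, so levels of single Ugt1a genes are uncertain.

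Ugt2b enzymes conjugate steroids, bile acids and drugs. Ugt2b5 (chr5:87124960-87140318, minus strand) read 10.3, 20.6, 36.96 and 11.4 FPKM in HMLS and 8.82, 10.7, 17.2, 9.98 and 14.3 FPKM in TM. It read 23.4, 21.7, 8.43, 22.7 and 8.996 FPKM in DSS, against 16.2, 25.4 and 29.7 FPKM in CON. All TM libraries but 6 stood below the lowest CON library, and DSS libraries split into 3 inside the CON range and 2 far below it. Ugt2b5 gave a log2 difference of -0.46 ± 0.27 (SE, adjusted p = 0.199) in HMLS, -0.98 ± 0.16 (SE, adjusted p = 0.000993) in TM and -0.62 ± 0.24 (SE, adjusted p = 0.0688) in DSS. The DSS value was called without CON 7, DSS 1 or DSS 6, and the HMLS value, lower, without HMLS 7 (adjusted p = 0.00767). With all libraries the DSS value was called under quantile scaling (adjusted p = 0.048) and 75th percentile scaling (adjusted p = 0.0425). Ugt2b5 shares 41.7% of its 50-base words with other Ugt2b genes. Ugt2b35 read 10.5, 11.7, 20.4 and 18.3 FPKM in HMLS and 5.21, 9.59, 11.5, 7.84 and 9.36 FPKM in TM. It read 13.7, 10.4, 11.7, 9.43 and 9.73 FPKM in DSS, against 9.13, 13.3 and 14.7 FPKM in CON, and fell in TM at a log2 difference of -0.49 ± 0.16 (SE, adjusted p = 0.0355). That call ended when any of 7 libraries was left out, at adjusted p values of 0.0183 to 0.0798 over the 13. Ugt2b36, at most 5.16 FPKM in any library, fell in TM at a log2 difference of -0.61, a call that ended without TM library 7. Ugt2b34, the most abundant of the family, averaged 250.4 ± 81.5 FPKM in HMLS, 154 ± 40.8 in TM and 175 ± 44.3 in DSS, against 193 ± 30.9 in CON, and was not called in any of the 3. It was called without HMLS library 3 in HMLS (adjusted p = 0.0217) and without TM library 8 in TM (adjusted p = 0.0472). With 75th percentile scaling it was called lower in TM (adjusted p = 0.0488).

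The glutathione transferases called were lower, in the mu, theta, zeta and kappa classes, apart from Gsto1, which was called higher under the alternatives given with it. Of the 7 Gstm genes, 2 fell in HMLS, 3 in TM and 3 in DSS, where 16.6%, 11.8% and 13.1% of all genes tested were called lower. Gstm1 (chr3:108012255-108017973, minus strand) read 66.9, 55.4, 62.04 and 45.5 FPKM in HMLS and 58.2, 83.3, 83.03, 49.3 and 75.6 FPKM in TM. It read 52.1, 58.8, 66.9, 49.2 and 41.2 FPKM in DSS, against 67.9, 77.9 and 85.9 FPKM in CON. All HMLS and all DSS libraries stood below the lowest CON library, while 3 TM libraries lay inside the CON range. Gstm1 gave a log2 difference of -0.44 ± 0.11 (SE, adjusted p = 0.00725) in HMLS, -0.18 ± 0.12 (SE, adjusted p = 0.29) in TM and -0.54 ± 0.11 (SE, adjusted p = 0.00333) in DSS.

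Gstm2 (chr3:107981702-107986453, minus strand) read 51.5, 48.5, 56.1 and 38.1 FPKM in HMLS and 71.4, 61.8, 68.03, 51.9 and 51.5 FPKM in TM. It read 72.5, 63.6, 59.1, 51.4 and 44.5 FPKM in DSS, against 65.3, 73.4 and 97.4 FPKM in CON. All HMLS libraries stood below CON, and TM and DSS overlapped it. Gstm2 gave a log2 difference of -0.65 ± 0.13 (SE, adjusted p = 0.00181) in HMLS, -0.33 ± 0.11 (SE, adjusted p = 0.0435) in TM and -0.40 ± 0.13 (SE, adjusted p = 0.0297) in DSS. The TM call ended when any of 8 libraries was left out and the DSS call when any of 4 was. Over each library left out in turn, the adjusted p ranged over 0.021 to 0.12 in TM and 0.0114 to 0.0905 in DSS. Both ended with the 5 CON libraries of low Hoxa13 alone.

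Gstm3 read 1.08, 3.16, 4.03 and 0.381 FPKM in HMLS and 1.34, 1.02, 2.23, 0.399 and 2.49 FPKM in TM. It read 1.61, 1.52, 0.369, 1.54 and 0.309 FPKM in DSS, against 1.61, 3.06 and 3.83 FPKM in CON. The lowest CON library matched the highest DSS library to 3 digits. Gstm3 gave a log2 difference of -0.46 ± 0.28 (SE, adjusted p = 0.214) in HMLS, -0.70 ± 0.20 (SE, adjusted p = 0.0203) in TM and -0.96 ± 0.20 (SE, adjusted p = 0.00432) in DSS. The HMLS value was called without HMLS library 7 (adjusted p = 0.0406). The TM call ended without TM library 5 or 7 and with the 5 CON libraries of low Hoxa13 alone. Gstm3 shares 28.8% of its 50-base words with other genes. Gstm6, at 2.98 ± 1.03 FPKM in TM and 4.77 ± 1.44 in CON, fell in TM at a log2 difference of -0.54, a call that ended when any of 8 libraries was left out and with the 5 CON libraries of low Hoxa13 alone.

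In the theta class, Gstt1 (chr10:75783813-75798584, minus strand), which acts on small halogenated compounds, read 16.4, 9.98, 16.3 and 10.9 FPKM in HMLS and 13.3, 19.6, 14.1, 13.1 and 12.6 FPKM in TM. It read 15.5, 16.6, 21.7, 12.2 and 11.2 FPKM in DSS, against 16.7, 20.9 and 34.2 FPKM in CON. All 4 HMLS libraries stood below CON, as did all TM libraries but 5 and all DSS libraries but 5. Gstt1 gave a log2 difference of -0.70 ± 0.18 (SE, adjusted p = 0.00872) in HMLS, -0.57 ± 0.15 (SE, adjusted p = 0.0138) in TM and -0.51 ± 0.17 (SE, adjusted p = 0.0418) in DSS. The DSS call ended when any of 9 libraries was left out (adjusted p ranging over 0.0165 to 0.118 across the 13) and with the 5 CON libraries of low Hoxa13 alone. Gstt3 fell in HMLS at a log2 difference of -0.38 ± 0.12 (SE, adjusted p = 0.0258) and in TM at -0.39 ± 0.11 (SE, adjusted p = 0.0174), and stood at -0.23 in DSS, where it was not called. The Gstt3 calls ended without HMLS library 3 or 8, without TM library 8, and with the 5 CON libraries of low Hoxa13 alone. The DSS value of Gstt3 was called under quantile scaling (-0.34, adjusted p = 0.0494). Gstt2 averaged 13.8 ± 5.53 FPKM in HMLS, 16.6 ± 3.05 in TM and 13.7 ± 1.69 in DSS, against 16.7 ± 2.01 in CON, and was not called. It was called lower in HMLS without HMLS library 6 (adjusted p = 0.00407) and in DSS without CON library 6 (adjusted p = 0.038). With all libraries, Gstt2 was called lower in DSS under quantile scaling (adjusted p = 0.0225) and 75th percentile scaling (adjusted p = 0.0137). In HMLS it was called lower with the mapped share as covariate (adjusted p = 0.0337).

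Gstz1 (chr12:87147165-87164723, plus strand), the maleylacetoacetate isomerase of tyrosine breakdown, was lower with no overlap in all 3 groups. It read 10.5, 15.8, 13.5 and 12.8 FPKM in HMLS and 14.8, 13.9, 15.9, 16.5 and 16.1 FPKM in TM. It read 13.7, 13.1, 9.93, 14.1 and 11.2 FPKM in DSS, against 17.3, 20.2 and 24.9 FPKM in CON. Groups without overlap and lower were found for 7.21% of all genes in HMLS, 3.4% in TM and 3.72% in DSS. Gstz1 gave a log2 difference of -0.63 ± 0.12 (SE, adjusted p = 0.00194) in HMLS, -0.40 ± 0.10 (SE, adjusted p = 0.00775) in TM and -0.70 ± 0.11 (SE, adjusted p = 0.00113) in DSS. No call of Gstz1 ended with any single library left out.

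Gstk1, a mitochondrial and peroxisomal transferase, read 43.2, 40.1, 37.3 and 39.3 FPKM in HMLS and 69.8, 39.2, 33.9, 39.7 and 42.1 FPKM in TM. It read 27.2, 53.2, 58.3, 40.8 and 34.97 FPKM in DSS, against 45.5, 50.2 and 70.6 FPKM in CON. It fell in HMLS at a log2 difference of -0.38 ± 0.12 (SE, adjusted p = 0.0226), where all 4 libraries stood below CON, and that call ended without HMLS library 7 or 8. The TM value, -0.26, was called without TM library 3, at -0.43 and an adjusted p of 0.0132. The DSS value was called lower under quantile scaling (-0.45, adjusted p = 0.0406). Gsto1, which reduces dehydroascorbate, averaged 268 ± 10.6 FPKM in HMLS, 234 ± 29.6 in TM and 271 ± 37.7 in DSS, against 219 ± 42.9 in CON, and was not called. Without CON library 8, which held 311 FPKM, it was called higher in HMLS (0.39, adjusted p = 0.00929) and in DSS (0.40, adjusted p = 0.0191). It was also called higher with quantile scaling in HMLS (adjusted p = 0.0373) and DSS (adjusted p = 0.0461), and with all 22 libraries in 1 fit in DSS (adjusted p = 0.0496).

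The alpha and pi classes gave no call. Gsta4, which conjugates the lipid peroxidation product 4-hydroxynonenal, averaged 58.2 ± 20.1 FPKM in HMLS, 76.01 ± 24.1 in TM and 76.03 ± 31.6 in DSS, against 61.9 ± 11.6 in CON. Gsta3 averaged 4.57 ± 0.913 FPKM in HMLS, 2.83 ± 1.199 in TM and 2.99 ± 1.28 in DSS, against 4.13 ± 2.78 in CON. Gstp1 averaged 152 ± 22.7 FPKM in HMLS, 134 ± 27.9 in TM and 158 ± 45.01 in DSS, against 132 ± 41.97 in CON. Gstp2 averaged 37.3 ± 3.07 FPKM in HMLS, 36.1 ± 9.24 in TM and 43.9 ± 17.9 in DSS, against 50.9 ± 17.9 in CON. Gstp1 and Gstp2 share 51.0% and 50.4% of their 50-base words, largely with each other, so their split is uncertain. With the 5 CON libraries of low Hoxa13 alone, Gstp2 was called lower in HMLS and TM, at -0.60 and -0.68. With the library number as a block it was called lower in TM (-0.59, adjusted p = 0.0216).

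Sulfotransferases moved in both directions. Sult1c2 (chr17:53829637-53846339, minus strand), a cytosolic sulfotransferase of phenols, fell in all 3 groups. It read 15.03, 11.6, 41.8 and 29.6 FPKM in HMLS and 10.1, 16.9, 21.6, 13.04 and 21.8 FPKM in TM. It read 31.1, 29.4, 20.9, 12.4 and 15.7 FPKM in DSS, against 33.2, 51.2 and 58.8 FPKM in CON. All TM and all DSS libraries stood below CON, and HMLS library 7 lay inside its range. Sult1c2 gave a log2 difference of -1.09 ± 0.28 (SE, adjusted p = 0.00914) in HMLS, -1.51 ± 0.19 (SE, adjusted p = 0.00015) in TM and -1.16 ± 0.21 (SE, adjusted p = 0.00188) in DSS. With the mapped share as covariate the Sult1c2 calls ended in HMLS (-0.65, adjusted p = 0.134) and DSS (-0.46, adjusted p = 0.4015). The HMLS call also ended with the library number as a block (adjusted p = 0.1097).

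Sult1a1 (chr7:126672865-126676432, minus strand), the main phenol sulfotransferase, read 179.6, 309.7, 235 and 154 FPKM in HMLS and 66.7, 222, 189.9, 130.3 and 213 FPKM in TM. It read 125, 172, 173, 174 and 91.6 FPKM in DSS, against 195, 245 and 261 FPKM in CON. All DSS libraries stood below CON, and HMLS and TM overlapped it. Sult1a1 gave a log2 difference of -0.14 ± 0.16 (SE, adjusted p = 0.494) in HMLS, -0.63 ± 0.23 (SE, adjusted p = 0.0541) in TM and -0.71 ± 0.15 (SE, adjusted p = 0.00459) in DSS. The TM value was called without TM library 5, 6 or 8, and with 75th percentile scaling (adjusted p = 0.036).

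Sult1d1 (chr5:87554645-87569027, minus strand), which sulfates catecholamines in the mouse, rose in HMLS. It read 502, 488, 467 and 809 FPKM in HMLS and 147, 337, 288, 308 and 442 FPKM in TM. It read 198, 236, 518, 256 and 318 FPKM in DSS, against 220.1, 283 and 375 FPKM in CON. Every HMLS library stood above every CON library, and the TM and DSS libraries spread on both sides of the CON range. Sult1d1 gave a log2 difference of 0.95 ± 0.18 (SE, adjusted p = 0.00144) in HMLS, 0.01 ± 0.22 (SE, adjusted p = 0.97) in TM and 0.02 ± 0.21 (SE, adjusted p = 0.958) in DSS.

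Sult2b1 (chr7:45729983-45784669, minus strand), which sulfates cholesterol and pregnenolone, rose in HMLS and DSS. It read 44.1, 32.4, 21.4 and 36.1 FPKM in HMLS and 17.6, 26.4, 22.1, 34.9 and 28.5 FPKM in TM. It read 18.3, 35.4, 42.3, 26.2 and 39.9 FPKM in DSS, against 12.3, 20.3 and 27.6 FPKM in CON. The groups overlapped. Sult2b1 gave a log2 difference of 0.71 ± 0.20 (SE, adjusted p = 0.0163) in HMLS, 0.36 ± 0.19 (SE, adjusted p = 0.165) in TM and 0.65 ± 0.21 (SE, adjusted p = 0.0335) in DSS. The HMLS call ended without HMLS library 3 or 8, and the DSS call when any of 5 libraries was left out (adjusted p ranging over 0.00586 to 0.0909 across the 13). The DSS call also ended with the 5 CON libraries of low Hoxa13 alone.

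Nr1h4 and Rxra, a pair of nuclear receptors, were called higher in all 3 groups, though in DSS the calls of Nr1h4 (adjusted p = 0.151) and Rxra (adjusted p = 0.132) ended with the mapped share as covariate. The shares of all genes called were 17.5% higher and 16.6% lower in HMLS, 14.3% and 11.8% in TM, and 14% and 13.1% in DSS. Of 13 tested xenobiotic receptors and partners, 6 were called higher and 0 lower in HMLS, 4 higher and 2 lower in TM, and 5 higher and 0 lower in DSS. Nr1i2, the pregnane X receptor that switches on Cyp3a and Cyp2c genes in liver, read 40.7 ± 6.13 FPKM in HMLS, 36.7 ± 7.696 in TM and 36.9 ± 4.62 in DSS, against 27.3 ± 4.602 in CON (SD, n = 4, 5, 5 and 8). Its log2 difference was 0.57 ± 0.13 (SE, adjusted p = 0.00474) in HMLS, 0.40 ± 0.14 (SE, adjusted p = 0.0404) in TM and 0.43 ± 0.12 (SE, adjusted p = 0.0154) in DSS. Nr1h4, the bile acid receptor FXR, rose at a log2 difference of 1.02 ± 0.16 (SE, adjusted p = 0.000539) in HMLS, 0.90 ± 0.15 (SE, adjusted p = 0.00119) in TM and 0.96 ± 0.16 (SE, adjusted p = 0.00133) in DSS. Rxra, the partner of both, and Arnt, the partner of the aryl hydrocarbon receptor, were called higher in each group. With the library number as a block, the Rxra calls ended in HMLS (adjusted p = 0.0861) and TM (adjusted p = 0.066). The block also ended the HMLS calls of Arnt (adjusted p = 0.0757) and Nr1i2 (adjusted p = 0.078). Among all the pathway genes, it ended 20 of 24 calls in HMLS, 6 of 21 in TM and 5 of 16 in DSS. With the 5 CON libraries of low Hoxa13 alone, the Nr1i2 calls ended in TM (adjusted p = 0.121) and DSS (adjusted p = 0.0683), and the Arnt call ended in DSS (adjusted p = 0.105). The Arnt call in DSS also ended without DSS library 7. Ahr and Nfe2l2, the gene of NRF2, fell in TM, at a log2 difference of -0.21 and -0.75, and were not called in HMLS or DSS. The Nr1i2 call in TM ended when any of 10 libraries was left out and that of Ahr when any of 11 was. The Ahr call also ended with the 5 CON libraries of low Hoxa13 alone (adjusted p = 0.162), and that of Nfe2l2 with all 22 libraries in 1 fit (adjusted p = 0.332).

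Por, the reductase that hands electrons to every microsomal P450, read 107 ± 25.6 FPKM in HMLS, 99.5 ± 34.3 in TM and 105 ± 47.4 in DSS, against 58.2 ± 12.03 in CON. It rose at a log2 difference of 0.86 ± 0.17 (SE, adjusted p = 0.00201) in HMLS, 0.71 ± 0.20 (SE, adjusted p = 0.0183) in TM and 0.76 ± 0.22 (SE, adjusted p = 0.0188) in DSS, and it was the only one of the 6 tested genes of electron donors and heme to be called. Its TM call ended when any of 3 libraries was left out, and with the 5 CON libraries of low Hoxa13 alone its calls ended in TM (adjusted p = 0.095) and DSS (adjusted p = 0.102). With the library number as a block, the Por calls ended in HMLS (adjusted p = 0.0539) and TM (adjusted p = 0.0808). Of 11 genes that supply cofactors for conjugation, 6 were called higher and 2 lower in HMLS, 2 and 2 in TM, and 3 and 1 in DSS. Over all genes tested, 17.5% were called higher and 16.6% lower in HMLS, 14.3% and 11.8% in TM, and 14% and 13.1% in DSS. Slc35d1, which carries UDP-glucuronic acid into the endoplasmic reticulum, rose at a log2 difference of 1.49 ± 0.28 (SE, adjusted p = 0.0017) in HMLS, 0.83 ± 0.26 (SE, adjusted p = 0.0311) in TM and 1.34 ± 0.29 (SE, adjusted p = 0.00521) in DSS. Gclc, the catalytic subunit of the first step of glutathione synthesis, rose at a log2 difference of 1.34 ± 0.19 (SE, adjusted p = 0.000349) in HMLS, 0.68 ± 0.14 (SE, adjusted p = 0.00313) in TM and 0.75 ± 0.20 (SE, adjusted p = 0.0126) in DSS. The Slc35d1 call in TM ended when any of 8 libraries was left out. With the 5 CON libraries of low Hoxa13 alone, the calls of Slc35d1 in TM (adjusted p = 0.135), Gclc in DSS (adjusted p = 0.0774) and Papss1 in DSS (adjusted p = 0.0705) ended. Papss1, which makes the sulfate donor, fell at a log2 difference of -0.61, -0.59 and -0.58 in HMLS, TM and DSS. Its calls ended with the library number as a block in HMLS (adjusted p = 0.092) and DSS (adjusted p = 0.064).

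Of 25 other oxidation, reduction and hydrolysis enzymes, 4 were called higher and 1 lower in HMLS, where 17.5% and 16.6% of all genes were. In TM 2 and 6 were, beside 14.3% and 11.8%, and in DSS 1 and 4 were, beside 14% and 13.1%. Ephx1, the microsomal epoxide hydrolase, fell in each, at a log2 difference of -0.66 ± 0.14 (SE, adjusted p = 0.00387) in HMLS, -0.59 ± 0.11 (SE, adjusted p = 0.00256) in TM and -0.93 ± 0.12 (SE, adjusted p = 0.000335) in DSS. Its HMLS call ended with the mapped share as covariate (adjusted p = 0.0721) and with the library number as a block (adjusted p = 0.059). Ephx2, the soluble epoxide hydrolase that acts on the epoxides P450 enzymes make from arachidonic acid, fell in DSS at a log2 difference of -0.95 ± 0.18 (SE, adjusted p = 0.00241). Akr1c14, a hydroxysteroid dehydrogenase, fell in TM at a log2 difference of -1.83 ± 0.33 (SE, adjusted p = 0.00201), where the carboxylesterase Ces1f also fell, at a log2 difference of -0.90. Fmo2 was called higher in each group, at a log2 difference of 0.78 in HMLS, 0.65 in TM and 0.58 in DSS. The library number as a block ended its HMLS (adjusted p = 0.0553) and DSS (adjusted p = 0.16) calls. In HMLS, Akr1b7 (1.23), Akr1c19 (0.90) and Cbr1 (0.59) were called higher, as was Cbr3 (0.49) in TM. The calls of Akr1b7, Akr1c19, Cbr1 and Cbr3 each ended without some single library. Of 13 transporters, 3 were called higher and 1 lower in HMLS, 1 higher and 0 lower in TM, and 0 in either direction in DSS, where 2 were higher and 2 lower by limma at an unadjusted p under 0.05. The shares of all genes called were 17.5% and 16.6% in HMLS, 14.3% and 11.8% in TM, and 14% and 13.1% in DSS. Abcb1a, the efflux pump P-glycoprotein, read 541 ± 54.5 FPKM in HMLS, 302 ± 137 in TM and 329 ± 105 in DSS, against 287 ± 63.3 in CON, and rose in HMLS at a log2 difference of 0.93 ± 0.15 (SE, adjusted p = 0.000637). Of 7 other conjugation enzymes, Nnmt fell in TM at a log2 difference of -0.93 and Tpmt fell in DSS at a log2 difference of -0.51. The Nnmt call in TM ended when any of 7 libraries was left out (adjusted p ranging over 0.0145 to 0.0744) and with quantile scaling (adjusted p = 0.0796).

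The deep sea waters were compared with distilled water among the mice that all received DSS, in 1 fit of the 3 colitis groups with 62 tested members. No member, and none of the 13341 genes tested (0%), was called in either direction between HMLS and DSS, TM and DSS or HMLS and TM, with limma or with its variance model changed. Between HMLS and DSS, 4 members were higher and 0 lower at an unadjusted p under 0.05, where 2.95% of all genes were higher and 2.6% lower. Between TM and DSS, 2 were higher and 0 lower, where 1.85% and 0.899% of all genes were. Between HMLS and TM, 11 were higher and 0 lower, where 4.96% and 4.48% of all genes were. Groups without overlap were found for 0 members between HMLS and DSS (0.562% of all genes higher and 0.607% lower) and for 0 between TM and DSS (0.3% and 0.165%). Between HMLS and TM they were found for 1 member, Sult1d1, which was higher in HMLS (1.63% of all genes higher and 2.2% lower).

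On the log2 scale, Sult1d1 differed by 0.94 ± 0.31 (SE, unadjusted p = 0.00885, adjusted p = 0.849) between HMLS and DSS and by 0.94 ± 0.31 (SE, unadjusted p = 0.00867, adjusted p = 0.437) between HMLS and TM. HMLS library 8 held the highest level, DSS library 5 lay above all HMLS libraries but that one, and no TM library reached any HMLS library. Cyp2e1 differed by 2.06 ± 0.71 (SE, unadjusted p = 0.0117, adjusted p = 0.849) between HMLS and DSS and by 2.49 ± 0.71 (SE, unadjusted p = 0.00349, adjusted p = 0.417) between HMLS and TM, with the adipocyte sums listed beside Cyp2e1, whose part was not tested. Cyp3a13 differed by 0.65 ± 0.28 (SE, unadjusted p = 0.0361, adjusted p = 0.849) between HMLS and DSS. Cyp4b1 differed by 1.61 ± 0.72 (SE, unadjusted p = 0.0432, adjusted p = 0.849) between HMLS and DSS, with DSS library 5 inside the HMLS range.

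Between HMLS and TM, Cyp3a25 read 3.26, 3.86, 3.9005 and 1.95 FPKM in HMLS and 0.479, 2.12, 0.991, 1.28 and 2.37 FPKM in TM, a difference of 0.83 ± 0.27 (SE, unadjusted p = 0.00757, adjusted p = 0.437). The lowest HMLS library lay inside the TM range. Ugt2b35 differed by 0.73 ± 0.22 (SE, unadjusted p = 0.00416, adjusted p = 0.428). The other 7 members of the 11 higher in HMLS than in TM at an unadjusted p under 0.05 were Cyp2c55, Cyp2c65, Cyp3a13, Gsta3, Sult1b1, Ugt1a7c and Ugt2b34, and they were named after their values were seen. The lower side was led by Gstm2 (-0.32), Gstz1 (-0.23) and Gstt2 (-0.30), none at an unadjusted p under 0.05. Between HMLS and DSS the lower side was led by Cyp2d9 (-0.69), Gstm2 (-0.25) and Cyp2d10 (-0.53), likewise.

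Between TM and DSS, Gstz1 differed by 0.30 ± 0.12 (SE, unadjusted p = 0.0252, adjusted p = 1), and Gstm1 by 0.36 ± 0.17 (SE, unadjusted p = 0.0498, adjusted p = 1). Cyp2j9, an epoxygenase of arachidonic acid, read 2.69, 4.72, 3.68, 4.39 and 4.64 FPKM in TM and 4.63, 2.49, 3.11, 1.901 and 2.85 FPKM in DSS, and differed by 0.35 with overlap. On the lower side stood Cyp2d9 (-0.69), Cyp2c65 (-0.39) and Gsto1 (-0.21). A p that misses the threshold does not show that the waters act alike, since SEs of 0.12 to 0.72 on the log2 scale for these members leave room for differences in either direction.

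**Figure D5:**
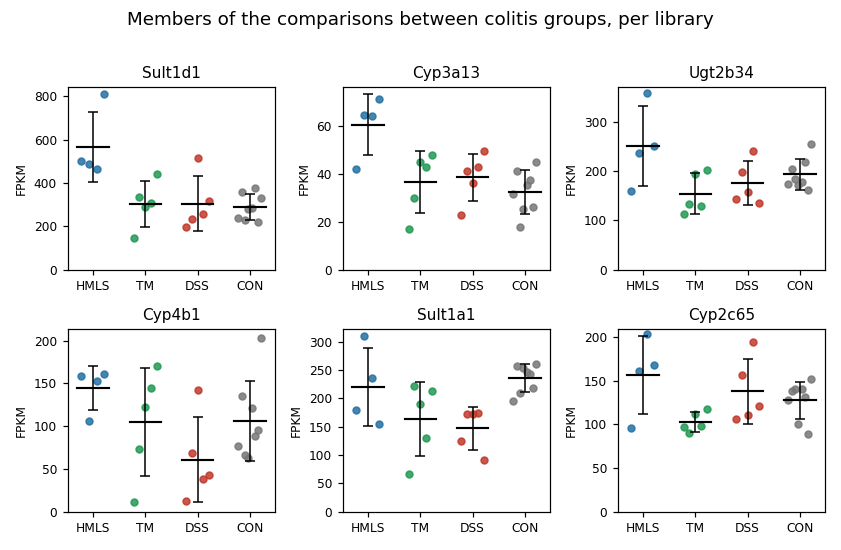
FPKM of 6 members in each library of HMLS, TM, DSS and CON, with the mean (line) and SD (bars), for comparisons among the colitis groups, none of which was called. The 4 HMLS libraries of Sult1d1 lie between 467 and 809 FPKM, above all CON and TM libraries, and HMLS 6, 7 and 8 are the highest libraries of Cyp3a13.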

How the data were processed

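Colon RNA of 22 libraries was measured by RNA-seq. Per the labels' protocols, frozen colon was extracted with Trizol and made into stranded total RNA libraries. The submitters' processing notes name bcl2fastq 2.20, Bowtie, TopHat2 2.0.13, Cufflinks 2.2.0 and build mm10, with no settings. The deposited expression values were used as FPKM. The header names no unit, and FPKM is inferred from those tools and the values. The deposited read counts per library and the deposited percent of mapped reads gave the depth. No counting interval is given for a gene, because its number of reads is unknown.

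Log2(FPKM + 1) was tested with limma 3.58.1 in R 4.3.3, with an intensity trend and robust variance, on genes that reached 1 FPKM in 4 or more of the libraries fitted. P-values were adjusted by Benjamini-Hochberg over all genes tested, at 0.05. Fold changes on this scale understate those of low genes. Comparisons with CON used their own 2 groups, and HMLS, TM and DSS shared 1 fit. No test is stated by the submitters. Libraries were treated as separate samples, and p-values measure the spread between them, which may be technical. The model was tested on simulated data. Named were the 2 most abundant members per family, up to 3 called members with the smallest p per family in DSS, members called at an absolute log2 difference of at least 1, and the 3 smallest p in each direction between colitis groups. Other called members were named after their values were seen. Members and lists were chosen with earlier results of these data known.

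Alternatives were a pseudocount of 0.1, no filter, quantile and 75th percentile scaling, no trend, 1 fit of all 22 libraries, the library number as a block, the mapped share as covariate and leaving out each library. Same-numbered TM and DSS libraries deviated together, at r of 0.137 to 0.460 over 3 pairs, which met the rule used for pairing. The DSS library of the same number was the best match for TM library 5 but not for 6 or 7. Whether the number pairs these libraries is therefore uncertain. In the other comparisons not every pair reached 0.1. Shared words of 50 bases were counted over GENCODE M21 transcripts with Python 3.11.15, since no source used here gives the read length. Promoters are RefSeq, GRCm38.p6, with 112 of 132 members matched. Gene positions are mm10, from GENCODE M21.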

Additional observations from a re-analysis of the deposited data

Results flagged for a closer look

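Over the 36 named members, 144 groups of libraries were examined for 1 library far from the rest, and 14 held one. Chance gives this in about 1 in 20 groups. In HMLS, library 7 stood high for Cyp2c69 (6.28 FPKM, next 1.43) and Cyp2d10 (15.2 FPKM, next 11.5), library 6 stood high for Gstt2 (22.02 FPKM, next 11.9) and low for Cyp4b1 (107 FPKM, next 153), and library 8 stood high for Sult1d1 (809 FPKM, next 502). In TM, library 7 stood high for Cyp2d10 (37.6 FPKM, next 10.98), library 8 for Cyp2e1 (15.3 FPKM, next 3.52), library 3 for Gstk1 (69.8 FPKM, next 42.1) and library 5 for Gstt1 (19.6 FPKM, next 14.1). In DSS, library 6 stood high for Cyp2c68 (9.79 FPKM, next 4.81), library 2 stood high for Gstp2 (75.3 FPKM, next 40.3) and library 7 stood low for Gstt2 (10.7 FPKM, next 14.02). In CON, library 8 stood high for Cyp4f14 (125 FPKM, next 77.8) and library 3 for Gsta3 (10.47 FPKM, next 4.47).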

How the results depend on the processing

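With a pseudocount of 0.1 or with no trend and robust variance, all 208 single-gene results kept their direction and their side of the threshold, and with no filter 195 did. Without the filter 1 member was called higher in TM, where 1771 of all genes were. Leaving out 1 library gave 4 to 11 members higher and 6 to 13 lower in HMLS, 0 to 1 and 11 to 18 in TM, and 1 to 5 and 11 to 15 in DSS, and 0 in each comparison among the colitis groups. The single libraries that moved these counts most were HMLS 3 (11 higher in HMLS without it), CON 8 (10 higher in HMLS), HMLS 8 (6 lower in HMLS), DSS 2 (1 higher in DSS) and DSS 7 (2 higher in DSS), and without CON 2, CON 8, TM 3, TM 5 or TM 8 1 member was called higher in TM. Some single library ended 6 of 16 calls in HMLS, 6 of 16 in TM and 6 of 18 in DSS. With the replicate number as a block, 2 members were called higher and 2 lower in HMLS, 1 higher and 9 lower in TM and 2 higher in DSS. Among all genes, the block left 319 called higher and 434 lower in HMLS, 1086 and 914 in TM, and 1125 higher in DSS. Without the block, these counts were 2339 and 2226 in HMLS, 1924 and 1586 in TM, and 1889 higher in DSS. The block ended 12 of 16 calls in HMLS, 8 of 16 in TM and 5 of 18 in DSS; the CON libraries share only a number with the others, at r of -0.211 to 0.335 over the pairs. Between TM and DSS, where a pairing by number is uncertain, 0 members were called with or without the block, which changed no other call there. That fit also held the HMLS libraries. With the mapped share as covariate, 5 members were called lower in HMLS, and 0 higher and 0 lower in DSS. Among all genes, 1607 were called lower in HMLS, and 4 higher and 22 lower in DSS. With the 5 CON libraries of low Hoxa13 alone, an alternative chosen after seeing the data, 1 member was called higher in TM and 2 in DSS. Among all genes, 1320 were called higher in TM and 1082 in DSS. Log2 differences that turned sign belonged to members that were not called. Under quantile scaling they were Gstp1 -0.020 and Ugt1a1 -0.029 in TM, and Cyp2c65 -0.061 and Ugt1a1 -0.066 in DSS. Under 75th percentile scaling they were Cyp2j9 -0.022 in HMLS, Gstp1 -0.0095, Sult1d1 -0.061 and Ugt1a1 -0.025 in TM, and Cyp2c65 -0.0056 and Sult1d1 -0.084 in DSS. Under the block they were Gstp1 -0.016 in TM and Sult1d1 -0.0083 in DSS. Under the covariate they were Cyp2c55 0.0078, Cyp4f14 0.12 and Gsta4 0.065 in HMLS, and Cyp2j9 0.031, Gstp2 0.14, Ugt1a7c 0.12 and Ugt2b35 0.11 in DSS. With the low Hoxa13 libraries they were Cyp2j9 -0.042 and Cyp4f14 0.019 in HMLS, Cyp2j9 -0.017, Gstp1 -0.089, Sult1d1 -0.12 and Ugt1a1 -0.11 in TM, and Cyp2c65 -0.063, Cyp3a25 -0.14, Sult1d1 -0.12 and Ugt1a1 -0.047 in DSS. Leaving out 1 library turned the sign of Cyp2j9 (-0.0021 to 0.10), Cyp4f14 (-0.14 to 0.15), Gsta4 (-0.28 to 0.13), Sult1a1 (-0.33 to 0.0085) in HMLS, Cyp3a25 (-0.27 to 0.024), Cyp3a44 (-0.38 to 0.33), Cyp4b1 (-0.65 to 0.30), Gstp1 (-0.026 to 0.16), Gstt2 (-0.096 to 0.047), Sult1d1 (-0.14 to 0.25), Ugt1a1 (-0.040 to 0.24) in TM and Cyp2c65 (-0.038 to 0.18), Cyp4f14 (-0.48 to 0.059), Sult1d1 (-0.20 to 0.15) in DSS (lowest to highest). The cause was not tested. Reads per gene are unknown here, so the depth behind a low FPKM cannot be given, and close copies may trade reads.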
